A study of Mus musculus with 54 samples.

Results

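The comparison asked whether the response of acceptor microglia to co-culture resolves between 150 and 300 min. Microglia are the resident phagocytes of the brain, and the cells here were primary cultures from neonatal C57BL/6 mice, shaken off an astrocyte layer. It rests on 6 of the 54 libraries of the series. These are the 3 libraries titled as acceptors at 300 min (experiments 1, 2 and 4) and the 3 acceptor libraries of the same replicate numbers at 150 min. One more acceptor library at 150 min, from experiment 3, has no partner at 300 min and stays out of the main values.

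Acceptors were stained with CellTracer Violet for 15 min and were not loaded with alpha-synuclein (aSyn), the protein that aggregates in Parkinson's disease. Donors had been given 1 µM of Atto-488-labelled aSyn for 14 h, and the populations were then mixed and later sorted apart by flow cytometry. Both acceptor groups had therefore met aSyn-loaded donors and had been stained and sorted. They differ in co-culture time, and the labels describe no untreated cells held for the same times. The replicate number of a title is called the experiment here, and the labels give experiments 1, 2 and 4 the passages 3, 1 and 2. RNA was read near the 3′ end of transcripts (QuantSeq forward chemistry, 50 bp single reads).

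Co-cultured microglia can pass protein aggregates and organelles to one another through thin actin-based bridges and vesicles. Cells that take up foreign material commonly switch on early transcription factors, inflammatory mediators and lysosomal genes, and many of these transcripts are short-lived. Type I interferon induces a separate set of antiviral genes through transcription factors that bind the interferon-stimulated response element. SRGAP2, the protein of the gene described first below, is a membrane-bending regulator of Rac that shapes cell protrusions.

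The 6 libraries held between 9372418 and 14281214 counts, within a range of 7807389 to 15537493 over the series. The ribosomal RNA precursor Rn45s took 9.04, 6.98 and 17.1% of counts at 150 min and 13.5, 7.74 and 16% at 300 min in experiments 1, 2 and 4. The library identifiers of experiment 4 fall in another number range than those of experiments 1 to 3, and the labels name no batch. Summed over 15 listed markers, microglia and macrophage genes stood between 9300 and 16300 CPM (counts scaled to a common library size) in the 6 libraries, lowest in experiment 4 at both times. Summed astrocyte markers were between 8.64 and 46.1 CPM, highest in experiment 4, with Ntsr2 at 0 in all 6 libraries. Oligodendrocyte markers summed to between 105 and 173 CPM (Opalin at 0), neuronal markers to between 1.49 and 9.59 CPM, endothelial and fibroblast markers to between 44.8 and 106 CPM, and markers of other leukocytes to between 141 and 247.7 CPM. The endothelial and fibroblast sums were 61.3, 44.8 and 70.7 CPM at 150 min in experiments 1, 2 and 4. At 300 min they were 77.7, 52.2 and 106 CPM, higher in each pair, although 7 of the 9 tested members had a log2 fold change below 0. Among these members, the fibroblast gene Dcn was at 0 in experiments 1 and 2. In experiment 4 it was at 15.6 and 2.58 CPM at 150 and 300 min. What such cells add to the results of experiment 4 was not tested.

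Between 150 and 300 min 1 gene passed the test. Srgap2 was the single call among 13148 tested genes, which is 0.00761%, and no gene was called lower (edgeR's quasi-likelihood test with the experiment as a block, Benjamini-Hochberg adjusted p under 0.05). At 150 min Srgap2 stood at 46.8, 57.2 and 46.6 CPM in experiments 1, 2 and 4. At 300 min it stood at 89.6, 94.1 and 86.1 CPM. Every 300 min library lay above every 150 min library, and the groups did not overlap. The means were 50.2 ± 6.05 and 90 ± 4 CPM (SD, n = 3). The log2 fold change was 0.85 with a standard error (SE) of 0.15 and an adjusted p of 0.0254 (edgeR). The differences within experiments were 0.93, 0.72 and 0.88 on the log2 scale, so all 3 pairs moved the same way by a similar amount.

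Srgap2 lies on the minus strand of mouse chromosome 1 (mm10, 131285251 to 131527352, GENCODE annotation), and 5 predicted genes overlap it on the same strand, so reads shared with them cannot be told apart. Untreated cells held more of its RNA than acceptors at 150 min. Summed over same-numbered libraries, untreated cells stood at 97.4, 138, 109 and 82.2 CPM in experiments 1 to 4. Acceptors at 60 min stood at 54.1, 69.6, 52.2 and 55 CPM, all below the untreated values. Against untreated cells, Srgap2 fell by 0.87 on the log2 scale at 60 min (edgeR adjusted p of 0.00011) and fell by 1.07 at 150 min (edgeR adjusted p of 2.83e-05). At 300 min the difference from untreated cells was -0.22 and missed the threshold (edgeR adjusted p of 0.544). These comparisons share libraries, so their values are set side by side only. The unpaired acceptor library of experiment 3 at 150 min held 53.2 CPM, within the range of the other 3. Library scaling, the filter on low counts, DESeq2, the unpaired library and the removal of Rn45s kept Srgap2 as the single call. Without the block no gene was called, 1.54% of genes had an unadjusted p under 0.05, and the adjusted p of Srgap2 was 1 (edgeR). Leaving out any 1 experiment gave it adjusted p-values between 0.101 and 0.898.

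**Figure D1:**
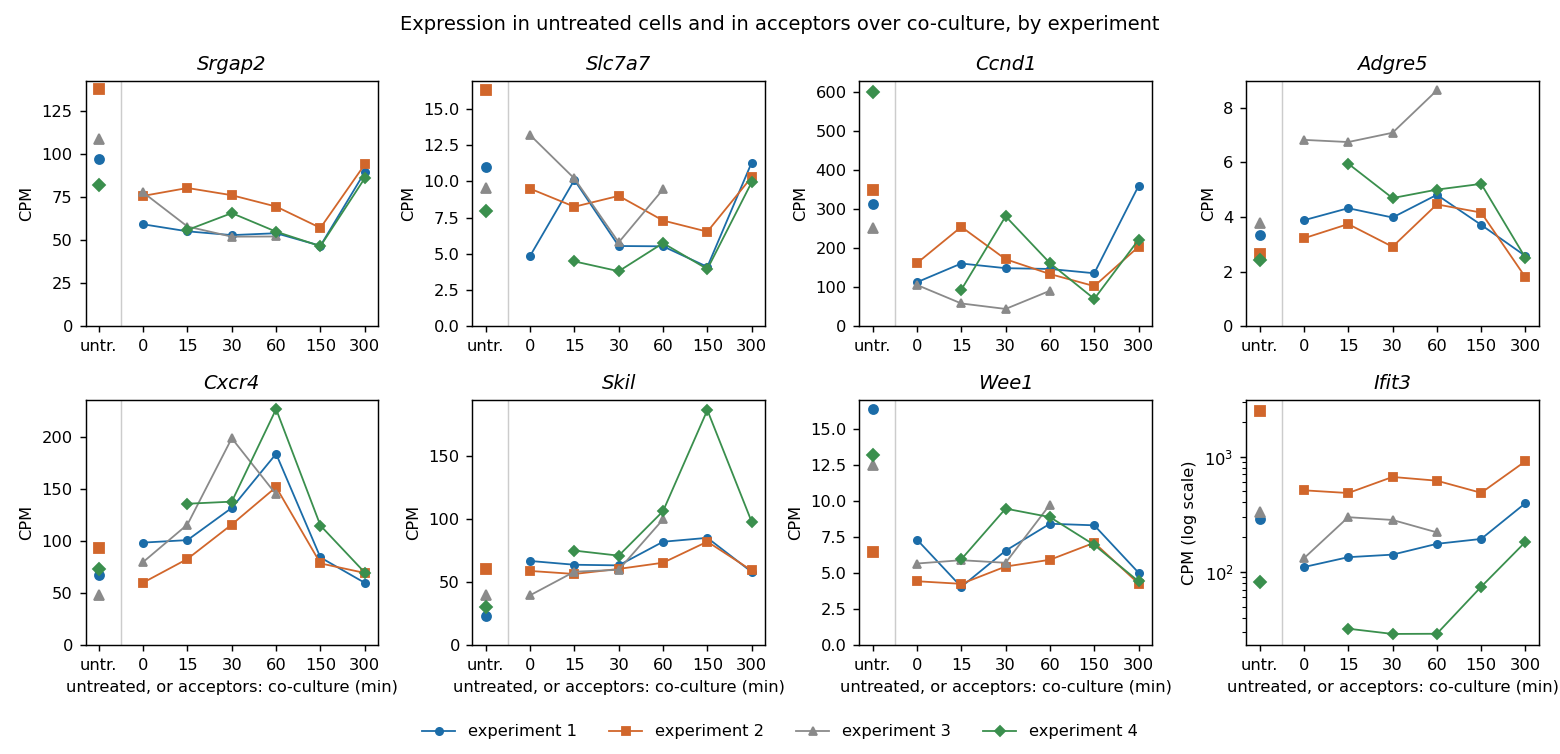
CPM of 8 genes in untreated cells (left of the grey line) and in acceptors by co-culture time in minutes, with 1 line per experiment (Ifit3 on a log axis). Srgap2 at 300 min stood between 86.1 and 94.1 CPM in the 3 experiments, above its 46.6 to 57.2 CPM at 150 min.

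An unadjusted p under 0.05 was reached by 706 genes (5.37%, edgeR), 288 with higher (2.19%) and 418 with lower (3.18%) values at 300 min. In the fit over all groups this total is close to the share of 0.05 expected where no gene changes. The total depended on the fit, so it does not settle how many genes changed. It was 1169 of 12502 genes with acceptor libraries only and 1349 of 11435 with the 6 libraries alone (edgeR, both with the block). Without the block it was 202 of 13148 (edgeR). The median SE of a log2 fold change was 0.234 over all tested genes. A fit of the 6 libraries alone, which takes its spread from these pairs, called 55 of 11435 genes (0.481%), 38 higher (0.332%) and 17 lower (0.149%), among them Srgap2 with an adjusted p of 0.00639 (edgeR). A count of calls in this comparison thus depends on which libraries set the spread, and the single call of the fit over all groups is the stricter one. The other genes named by p-value are given as values, since their adjusted p-values in the fit over all groups were between 0.482 and 0.598 (edgeR).

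After Srgap2, further genes were named as higher at 300 min by the smallest p-values among those higher in all 3 pairs. Slc7a7, a subunit of a cationic amino acid transporter, stood at 4.1, 6.53 and 3.95 CPM at 150 min and at 11.3, 10.3 and 9.94 CPM at 300 min. The groups did not overlap (log2 fold change 1.13, SE 0.28), but the unpaired library of experiment 3 held 13.4 CPM at 150 min, above all 3 libraries at 300 min. Against untreated cells, Slc7a7 fell at 150 min (log2 fold change -1.15, edgeR adjusted p of 0.00805). At 300 min its difference from untreated cells was -0.01.

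Cgas, the cytosolic DNA sensor that makes cyclic GMP-AMP, stood at 26.5, 32.6 and 24.2 CPM at 150 min and at 50.8, 48.1 and 38.7 CPM at 300 min. The 300 min libraries were all above the 150 min libraries (log2 fold change 0.73, SE 0.21). Gm4070, a predicted gene whose values follow the near-identical Gvin1 so that shared reads cannot be told apart, stood at 70.1, 96.5 and 58.9 CPM at 150 min and at 149, 153 and 116 CPM at 300 min. Itga4, the alpha-4 integrin subunit of leukocyte adhesion, stood at 27.2, 30.8 and 20.8 CPM at 150 min and at 40.9, 48.3 and 35 CPM at 300 min. Neither of these genes overlapped between the times in the 3 pairs, but the unpaired 150 min library of experiment 3 held 37.6 CPM of Itga4, above experiment 4 at 300 min. Ralgapa2, a subunit of a GTPase-activating complex for Ral, was higher by 0.83 on the log2 scale (SE 0.22), and Ptpn7, a leukocyte tyrosine phosphatase, by 0.66 (SE 0.19) with most of it in experiment 4 (1.52, against 0.35 and 0.19 in experiments 1 and 2). Eipr1 (0.61) and Fra10ac1 (0.66) were also higher in each pair. Gpc6, a glypican, and Fam161a had log2 fold changes of 2.07 and 2.29, but at levels of at most 2.82 CPM.

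By the same rule 12 genes were named as lower at 300 min. Adgre5 (CD97), an adhesion receptor of leukocytes, stood at 3.71, 4.16 and 5.21 CPM at 150 min and at 2.57, 1.79 and 2.5 CPM at 300 min. The groups did not overlap (log2 fold change -0.94, SE 0.23). Adgre5 was far more abundant in donors, at 85.5, 68.4, 101 and 67.2 CPM at 150 min and 40.5, 37.5, 59.3 and 28.6 CPM at 300 min in experiments 1 to 4. There it fell by 0.97 on the log2 scale (edgeR adjusted p of 0.000513). The acceptors' difference minus the donors' was 0.03 with a 95% interval from -0.61 to 0.66 (edgeR adjusted p of 1). Differences within that interval are compatible with the data. Whether donor RNA in the acceptor gate adds to the low Adgre5 counts of acceptors was not tested.

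Litaf, a protein of late endosomal membranes, stood at 416, 397 and 610 CPM at 150 min and at 268.2, 303.4 and 408.9 CPM at 300 min. Experiment 4 was highest at both times, so the groups overlapped while every pair was lower (log2 fold change -0.54, SE 0.14). Slc49a4, a solute carrier of the lysosomal membrane, stood at 24.7, 16.6 and 38.6 CPM at 150 min and at 16, 10.2 and 19.2 CPM at 300 min (log2 fold change -0.79, SE 0.20). Its groups overlapped as well. Cblb, a ubiquitin ligase that restrains immune signalling, stood at 28, 38.7 and 24.5 CPM at 150 min and at 15.6, 23.7 and 14.6 CPM at 300 min. All 3 libraries at 300 min were below the 3 paired ones at 150 min (log2 fold change -0.76, SE 0.21), but the unpaired 150 min library of experiment 3 held 22 CPM, below experiment 2 at 300 min. Cblb fell below untreated cells at 300 min by 0.83 on the log2 scale (edgeR adjusted p of 0.0318) and stood at -0.07 against them at 150 min.

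The other 8 genes named as lower by the same rule were Zfp26, Tmem189, Usp6nl, Ttyh2, Kif3a, Qrich1, Tbc1d9 and Slc6a8. Usp6nl, a GTPase-activating protein for Rab5, had the steepest value, -1.30 (SE 0.34), at 5.29 CPM or less. Kif3a, a kinesin motor subunit, and Slc6a8, the creatine transporter, stood at -0.57 (SE 0.15) and -0.50 (SE 0.14). Since use of strand is not stated, reads of Adgre5, Slc7a7 and Tmem189 cannot be told apart from those of the opposite-strand genes that overlap them (Ddx39, Oxa1l and Cebpb among others). The same limit applies to Litaf, Itga4 and other genes named in this report, such as Ccnd1 (overlapped by LTO1) and Npc1 (by Rmc1). Tbc1d9 stood at -0.67, Tmem189 at -0.58, Qrich1 at -0.56, Zfp26 at -0.52 and Ttyh2 at -0.44. Of the 12 genes named as lower, 8 were higher in acceptors at 60 min than in untreated cells (66.7%, against 1.95% of all tested genes). They were Adgre5, Slc49a4, Tmem189, Ttyh2, Litaf, Kif3a, Tbc1d9 and Slc6a8. Of the 12 named as higher, Srgap2, Cgas and Gm4070 were lower in acceptors at 60 min than in untreated cells (25%, against 1.99% of all tested genes).

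**Figure D2:**
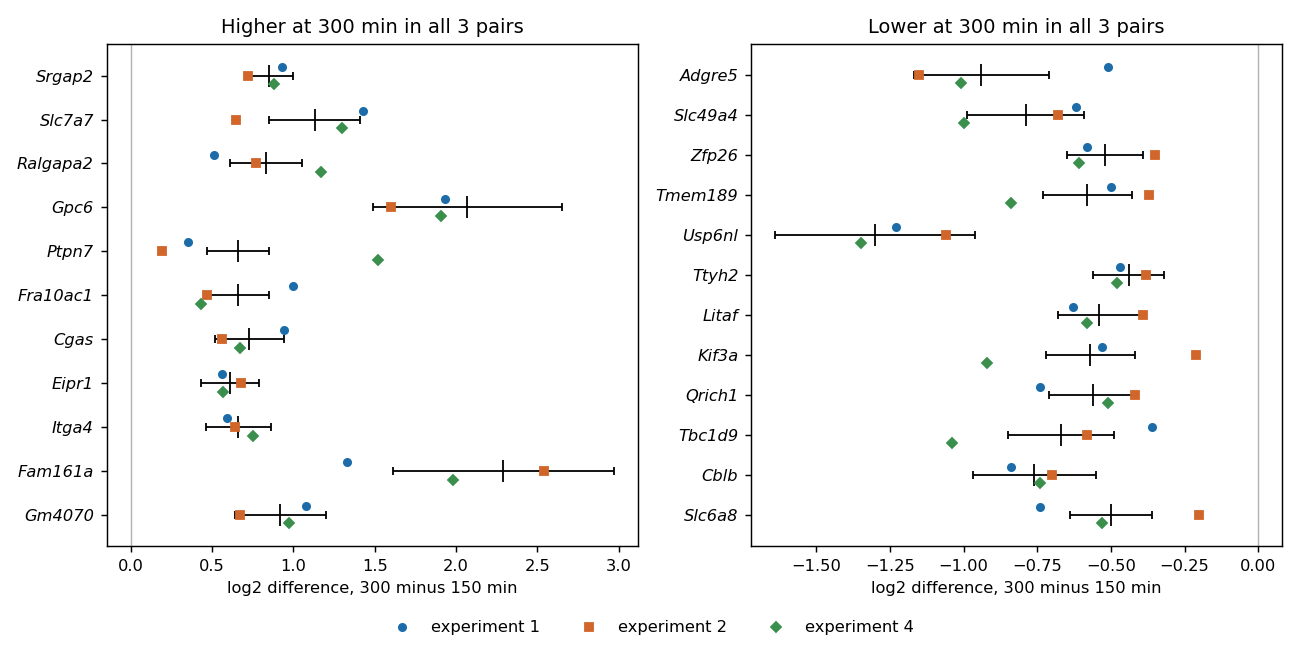
Log2 difference between 300 and 150 min for 23 genes named by p-value among those moving the same way in all 3 pairs, with 1 point per experiment and black bars for the fitted log2 fold change ± SE. Being on 1 side of 0 in every pair was part of how these genes were chosen, and Srgap2 alone passed the test.

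The difference of acceptors from untreated cells at 60 min was followed on genes called from libraries outside the comparison. In acceptors at 60 min, 518 of 13148 genes (3.94%) were called against untreated cells, 1.95% higher and 1.99% lower (edgeR). Of the genes higher at 60 min, 210 (82%) had a lower value at 300 than at 150 min, against 50.1% of all tested genes. Much of the difference from untreated cells was there at 0 min of co-culture. Within experiments 1, 2 and 3 the median difference of these genes from untreated cells was 0.42, 0.16 and 0.34 at 0 min and 0.55, 0.33 and 0.67 at 60 min. Their median log2 fold change between 150 and 300 min was -0.19, and it was -0.18, -0.16 and -0.23 in experiments 1, 2 and 4. In all 3 pairs 129 of them (50.4%) were lower, against 16.3% of all tested genes, and 31 (12.1%) had groups that did not overlap, against 3.13% of all. None was called between 150 and 300 min, and 51 had an unadjusted p under 0.05 toward lower and 1 toward higher values.

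The genes lower at 60 min showed the opposite displacement. They too stood below untreated cells at 0 min, with medians of -0.57, -0.44 and -0.52 in experiments 1, 2 and 3, against -0.67, -0.53 and -0.73 at 60 min. At 300 min 193 of them (73.7%) were higher than at 150 min, against 49.9% of all tested genes. Their median log2 fold change was 0.17, with values of 0.16, 0.12 and 0.23 in experiments 1, 2 and 4. In all 3 pairs 129 (49.2%) were higher, against 16.3% of all tested genes. Srgap2 was the 1 member that passed the test, and 44 had an unadjusted p under 0.05 toward higher and 3 toward lower values. The groups of 22 members (8.4%) did not overlap with 300 min higher, against 2.64% of all tested genes.

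Both lists kept a displacement from untreated cells at 300 min. Against untreated cells the median of the genes higher at 60 min was 0.62 at 60 min, 0.50 at 150 min and 0.34 at 300 min. The median of the genes lower at 60 min was -0.74, -0.67 and -0.48 at the same times. Within experiments 1 and 2 the medians at 300 min were 0.27 and 0.12 for the higher list and -0.38 and -0.37 for the lower list, closer to 0 than those at 0 min. What staining, sorting and co-culture each add to the difference from untreated cells was not tested, and experiment 4 has no acceptor library at 0 min here. The lists were chosen on the 60 min values against untreated cells, and the medians at all times, 0 min included, use the same untreated libraries. Deviations of those libraries thus enter every median, and the medians are a description. By the same test 437 genes (3.32%) were called against untreated cells at 150 min, 218 higher (1.66%) and 219 lower (1.67%), and 84 (0.639%) at 300 min, 43 higher (0.327%) and 41 lower (0.312%).

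The lists were also built without an experiment and read in that experiment's own pair. Genes higher at 60 min in the other experiments had medians between 150 and 300 min of -0.27 in experiment 1 (74 genes), -0.14 in experiment 2 (195 genes) and -0.21 in experiment 4 (171 genes). The share that was lower at 300 min was 77, 70.8 and 72.5%, against 48.7, 48.6 and 50.7% of all genes. Genes lower at 60 min had medians of 0.30, 0.17 and 0.23 in experiments 1, 2 and 4. Each of the 3 pairs thus showed both displacements for genes chosen without its libraries.

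**Figure D3:**
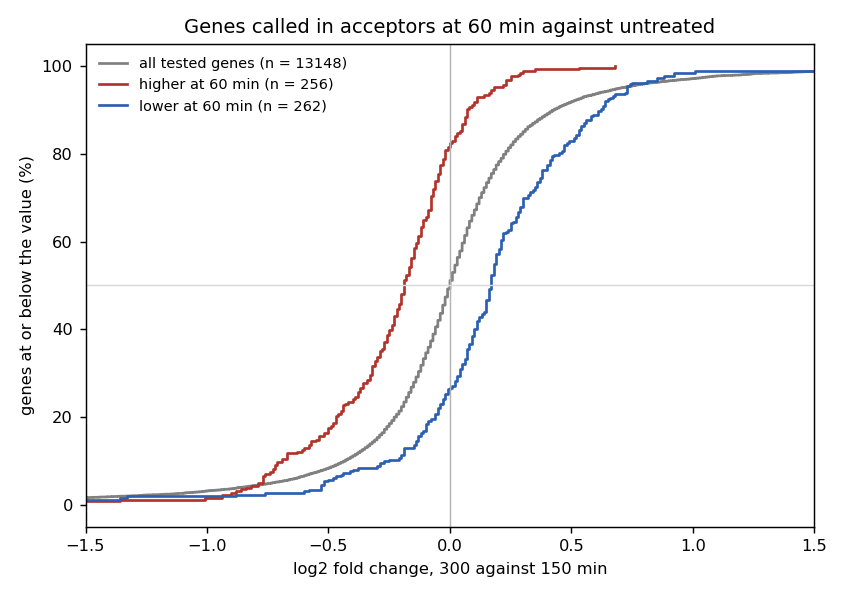
Cumulative share of genes (%) by log2 fold change between 150 and 300 min, for all tested genes and for genes called higher or lower in acceptors at 60 min against untreated cells. The curve of the genes higher at 60 min has its median at -0.19 and that of the genes lower at 60 min at 0.17.

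The corresponding lists from cells exposed to aSyn without co-culture were closer to 0. Between aSyn-treated and untreated cells 2484 genes (18.9%) were called, 8.87% higher and 10% lower. The 1166 genes higher in aSyn-treated cells had a median of -0.05 between 150 and 300 min in acceptors, and 59.6% were lower at 300 min. Their medians were -0.09, -0.10 and 0.02 in experiments 1, 2 and 4, so experiment 4 did not share the sign. The 1318 lower genes had a median of 0.06, and 60.2% were higher at 300 min.

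Among the lists of known pathways, interferon-stimulated genes were the farthest from 0. None of their 39 tested members was called, and 2 (Eif2ak2 and Trim30a) had an unadjusted p under 0.05 (edgeR), where 5.37% of all tested genes did. All 39 nevertheless had a log2 fold change above 0, with a median of 0.40, where the median of all tested genes was 0.00. The medians were 0.25, 0.28 and 0.85 in experiments 1, 2 and 4. In all 3 pairs 27 members (69.2%) were higher at 300 min, against 16.3% of all tested genes, and the groups of 4 members (10.3%) did not overlap, against 2.64% of all. In the fit of the 6 libraries alone, 8 of the 39 were called, all higher, where 0.332% of the 11435 genes tested in that fit were called higher. Genes of a list share regulators and are not independent of each other.

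The promoters of these genes can be compared for the core of the interferon-stimulated response element, taken as GAAA, any 2 bases and GAAA again, and searched on both strands of the 250 bases before the transcription start (RefSeq, GRCm38.p6). It was present in 13 of the 30 members with a promoter in the table (43.3%), against 3.35% of tested genes with a promoter and 2.98% of all promoters. The match is a description of letters, not evidence of binding. Stretches of 50 bases are shown for 4 members, with every match in them in capitals. A match on the other strand reads as TTTC, 2 bases and TTTC. Irf7, Eif2ak2 and Parp14 were searched with these 4 and gave no stretch, for lack of a match or of a promoter in the table. The stretches shown were thus kept for having a match. The stretch of Ifit1 holds 2 matches and that of Isg15 holds 3 that overlap, and Ifit3 has 1 more match outside its stretch. They lie at chr19:34640784-34640833 (plus strand) for Ifit1, chr19:34583387-34583436 (plus strand) for Ifit3, chr4:156200855-156200904 (minus strand) for Isg15 and chr7:104465200-104465249 (minus strand) for Trim30a.
Ifit1: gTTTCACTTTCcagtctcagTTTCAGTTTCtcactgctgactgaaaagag
Ifit3: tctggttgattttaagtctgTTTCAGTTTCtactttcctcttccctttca
Isg15: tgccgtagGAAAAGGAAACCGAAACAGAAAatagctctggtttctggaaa
Trim30a: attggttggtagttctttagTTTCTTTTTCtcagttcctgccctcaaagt

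Ifit3, an antiviral protein with tetratricopeptide repeats, stood at 193, 485 and 74.2 CPM at 150 min and at 395, 913 and 182 CPM at 300 min in experiments 1, 2 and 4. All 3 pairs were higher at 300 min while the experiments lay far apart, so the groups overlapped (log2 fold change 1.07, SE 0.56, edgeR adjusted p of 0.927). The near-identical Ifit3b can share its reads. Ifit1, a sensor of viral RNA ends, stood at 201, 323 and 111 CPM at 150 min and at 286.2, 528.1 and 239.1 CPM at 300 min (log2 fold change 0.78, SE 0.57). Isg15, a ubiquitin-like modifier, stood at 136, 389 and 150 CPM at 150 min and at 162, 483 and 321 CPM at 300 min (log2 fold change 0.46, SE 0.65). Experiment 2 was highest for all 3 genes at both times.

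Trim30a, which restrains Toll-like receptor signalling, had tighter values. It stood at 190, 307 and 202 CPM at 150 min and at 325, 400 and 361 CPM at 300 min, with no overlap (log2 fold change 0.66, SE 0.28). Eif2ak2, the kinase PKR, stood at 29.9, 43.8 and 30 CPM at 150 min and at 47.7, 53.3 and 53.9 CPM at 300 min, also with no overlap (log2 fold change 0.60, SE 0.22). Members near 0 included Irf7, the transcription factor that amplifies interferon production (0.15), and Ifi44 (0.05).

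Against untreated cells of the same experiment, the interferon list had medians of 0.24, -1.08 and 0.07 at 150 min in experiments 1, 2 and 4. At 300 min they were 0.46, -0.82 and 1.05, so experiments 1 and 4 lay farther from untreated cells and experiment 2 closer to them. The fit over all groups, with untreated cells of experiment 3 included, had medians of -0.38 at 150 min and -0.02 at 300 min. Levels of this list also differed among untreated libraries. Untreated cells of experiment 2 held 2490 CPM of Ifit3, against 287, 332 and 81.5 CPM in experiments 1, 3 and 4. The median of the list without experiment 4 was 0.26 with 33 of 39 members above 0. With the unpaired 150 min library of experiment 3 it was 0.35 with 32 of 39 above 0. What sets the larger interferon values of experiment 4 was not tested.

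**Figure D4:**
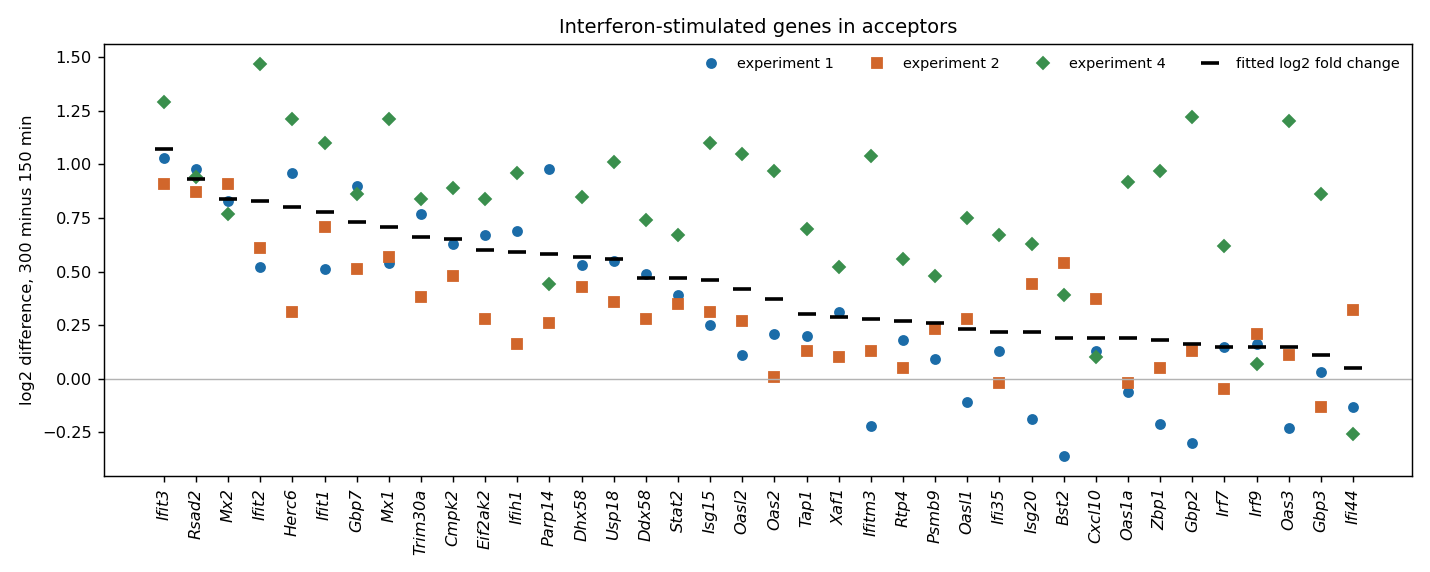
Log2 difference between 300 and 150 min for 38 of the 39 tested interferon-stimulated genes, ordered by fitted log2 fold change (black dashes), with 1 point per experiment. Experiment 4 had the largest list median, 0.85, against 0.25 and 0.28 in experiments 1 and 2.

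Genes of TGF-beta signalling, a pathway that maintains microglial identity, had mostly small negative values. Of 23 tested members 22 had a log2 fold change below 0, with a median of -0.17, medians of -0.16, -0.24 and -0.35 in experiments 1, 2 and 4, and 8 members lower in all 3 pairs (34.8%, against 16.3% of all tested genes). None was called, and none of the 23 had groups that did not overlap, against 3.13% of all tested genes with 300 min lower. Skil, a repressor of SMAD proteins that TGF-beta itself induces, stood at 84.9, 81.9 and 186 CPM at 150 min and at 57.9, 59.1 and 97.6 CPM at 300 min (log2 fold change -0.69, SE 0.23). Experiment 4 was high at both times, so the groups overlapped although every pair was lower. Against untreated cells Skil rose by 1.55 on the log2 scale at 150 min (edgeR adjusted p of 3.89e-05) and was still higher at 300 min by 0.86 (edgeR adjusted p of 0.0495).

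Tgfbr1, the type I receptor, stood at 141, 97 and 134 CPM at 150 min and at 107, 57.2 and 68.8 CPM at 300 min (log2 fold change -0.71, SE 0.24). The groups overlapped through experiment 1 at 300 min, which lay above experiment 2 at 150 min. Ski, a relative of Skil, was at -0.34 (SE 0.10). Both Skil and Tgfbr1 were called lower in the fit of the 6 libraries alone, with adjusted p-values of 0.0334 and 0.0288 (edgeR).

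Autophagy and lysosome genes had small negative values. Of all tested genes 50.1% were below 0. Of 28 autophagy genes 24 were below 0 (median -0.13), and 13 were lower in all 3 pairs (46.4%, against 16.3% of all tested genes). The groups of 4 (14.3%) did not overlap with 300 min lower, against 3.13% of all. The autophagy receptor gene Nbr1 was at -0.29 (SE 0.11) and Map1lc3b, which encodes the LC3 protein it binds, at -0.20 (SE 0.10), with Atg13 at -0.33 and Gabarapl1 at -0.30. Of 44 genes for lysosomal hydrolases and the vacuolar proton pump 31 were below 0 (median -0.06). At an unadjusted p under 0.05, 7 of the 44 were lower and none higher, against 3.18% and 2.19% of all tested genes (edgeR, none was called). They included the cholesterol exporter Npc1 at -0.31 (SE 0.11), the acid alpha-glucosidase Gaa at -0.29 (SE 0.12) and the proton pump subunits Atp6v1h at -0.35 (SE 0.14) and Atp6v1a at -0.30 (SE 0.12).

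Early-response and inflammatory genes differed by experiment. Of 41 immediate early genes 27 were below 0, but the medians were 0.05, 0.00 and -0.43 in experiments 1, 2 and 4, so the list's median of -0.13 rested on experiment 4. Fos, a subunit of the AP-1 transcription factor, stood at 221, 192 and 380 CPM at 150 min and at 220, 178 and 194 CPM at 300 min. Experiments 1 and 2 thus differed little between the times while experiment 4 was lower. Jun, its partner, was higher by 0.45 (SE 0.21). Nr4a3 had a log2 fold change of -3.12 (SE 1.13), but it was at 0.293 and 0.359 CPM at 150 min in experiments 1 and 2 and at 6.87 CPM in experiment 4. Egr1, Ier2, Dusp1, Atf3 and Nr4a1 had log2 fold changes of 0.28, -0.27, -0.07, 0.28 and -0.73.

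The list of NF-kB and inflammatory genes had a median of -0.14, with 27 of 45 members below 0. Nfkbie, an inhibitor of NF-kB, stood at 18.1, 20.6 and 45.2 CPM at 150 min and at 13.3, 11 and 24.7 CPM at 300 min (log2 fold change -0.78, SE 0.30). Nfkbia, its relative, stood at 388, 393 and 1410 CPM at 150 min and at 342, 306 and 887 CPM at 300 min (log2 fold change -0.44, SE 0.23). All pairs of both genes were lower at 300 min, and experiment 4 was highest. The chemokine genes Ccl3 and Ccl4 had values of the other sign, 0.68 (SE 0.32) and 0.87 (SE 0.34). Il1b, the interleukin-1 beta gene, stood at 41.9, 71.3 and 591 CPM at 150 min and at 33, 51 and 521 CPM at 300 min, so its level differed more between experiments than between times. Cd83, an activation marker, had a log2 fold change of -1.09 (SE 0.49), while Tnf stood at -0.03 and Ccl2 at 0.34.

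Cholesterol synthesis genes had a median of 0.16, with 15 of 23 members above 0 and medians of 0.18, 0.23 and 0.16 in experiments 1, 2 and 4. Lss, which makes lanosterol, was at 0.47 (SE 0.23). Genes that FOXO factors activate when growth factor signals fade had a median of -0.14 (15 of 23 below 0), among them the ubiquitin ligase subunit Fbxo32 at -0.69 (SE 0.29). Clock genes had a median of -0.22, with medians of -0.01, -0.01 and -0.22 in experiments 1, 2 and 4. Nr1d2 was at -0.39 and Cry1 at -0.55.

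Cell cycle genes as a list stood near 0 (median 0.04), while single members differed. Ccnd1, cyclin D1, stood at 136, 103 and 70.3 CPM at 150 min and at 360, 204 and 222 CPM at 300 min, with no overlap (log2 fold change 1.39, SE 0.59). Untreated cells held 312.6, 348.7, 250.9 and 601.3 CPM, and Ccnd1 fell against them at 150 min by 2.12 on the log2 scale (edgeR adjusted p of 0.0327). E2f1, a transcription factor for entry into DNA synthesis, was at 0.40 (SE 0.19). Wee1, a kinase that holds back mitosis, stood at 8.31, 7.1 and 6.95 CPM at 150 min and at 5.02, 4.27 and 4.42 CPM at 300 min, with no overlap (log2 fold change -0.72, SE 0.23). Wee1 fell against untreated cells at 300 min by 1.35 on the log2 scale (edgeR adjusted p of 0.00115) and stood at -0.63 against them at 150 min, so it lay farther from untreated cells at the later time.

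Receptors for chemoattractants were mixed, with 12 of 20 above 0. Cxcr4, the receptor for CXCL12, stood at 84.3, 78.6 and 115 CPM at 150 min and at 59.9, 69.4 and 69.8 CPM at 300 min. All 3 libraries at 300 min were below those at 150 min (log2 fold change -0.49, SE 0.25, edgeR adjusted p of 0.927). At 60 min acceptors held 184, 152, 145 and 227 CPM in experiments 1 to 4, and Cxcr4 rose there by 1.33 on the log2 scale against untreated cells (edgeR adjusted p of 0.000331). By 150 min it stood at 0.41 against them and by 300 min at -0.07. The adenosine receptor Adora2b had a log2 fold change of -1.37 (SE 0.56) and S1pr1, a sphingosine phosphate receptor, -0.85 (SE 0.39). Adora2b counts were low, at 1.66, 1.72 and 7.19 CPM at 150 min in experiments 1, 2 and 4. At 300 min Adora2b stood at 1.07, 1.02 and 1.84 CPM, with the largest difference in experiment 4.

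Lists with medians within 0.06 of 0 covered homeostatic and disease-associated microglial genes (0.06 and -0.02), oxidative phosphorylation (0.01), glycolysis and hypoxia (0.02), heat shock (0.02), the unfolded protein response (0.05), antioxidant NRF2 targets (-0.05), LXR targets (-0.03), actin regulators of nanotubes (-0.01), apoptosis and p53 (0.03) and cytosolic ribosomal proteins (-0.03). Single members of these lists lay farther out. Keap1, which holds NRF2 in check, was at 0.45 (SE 0.16), the p53 target Bbc3 at 0.40 (SE 0.16) and the hypoxia-induced carbonic anhydrase gene Car9 at -0.95 (SE 0.37), at 6.74 CPM or less. Klf2, Hmox1 and Pcna stood at -0.07, -0.33 and -0.36. Genes of antigen presentation by MHC had a median of 0.16, with -0.02, 0.09 and 0.21 in experiments 1, 2 and 4. No member of any pathway list was called in the fit over all groups, and 14 of 644 were called in the fit of the 6 libraries alone (2.17%, against 0.481% of all genes tested in that fit).

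**Figure D5:**
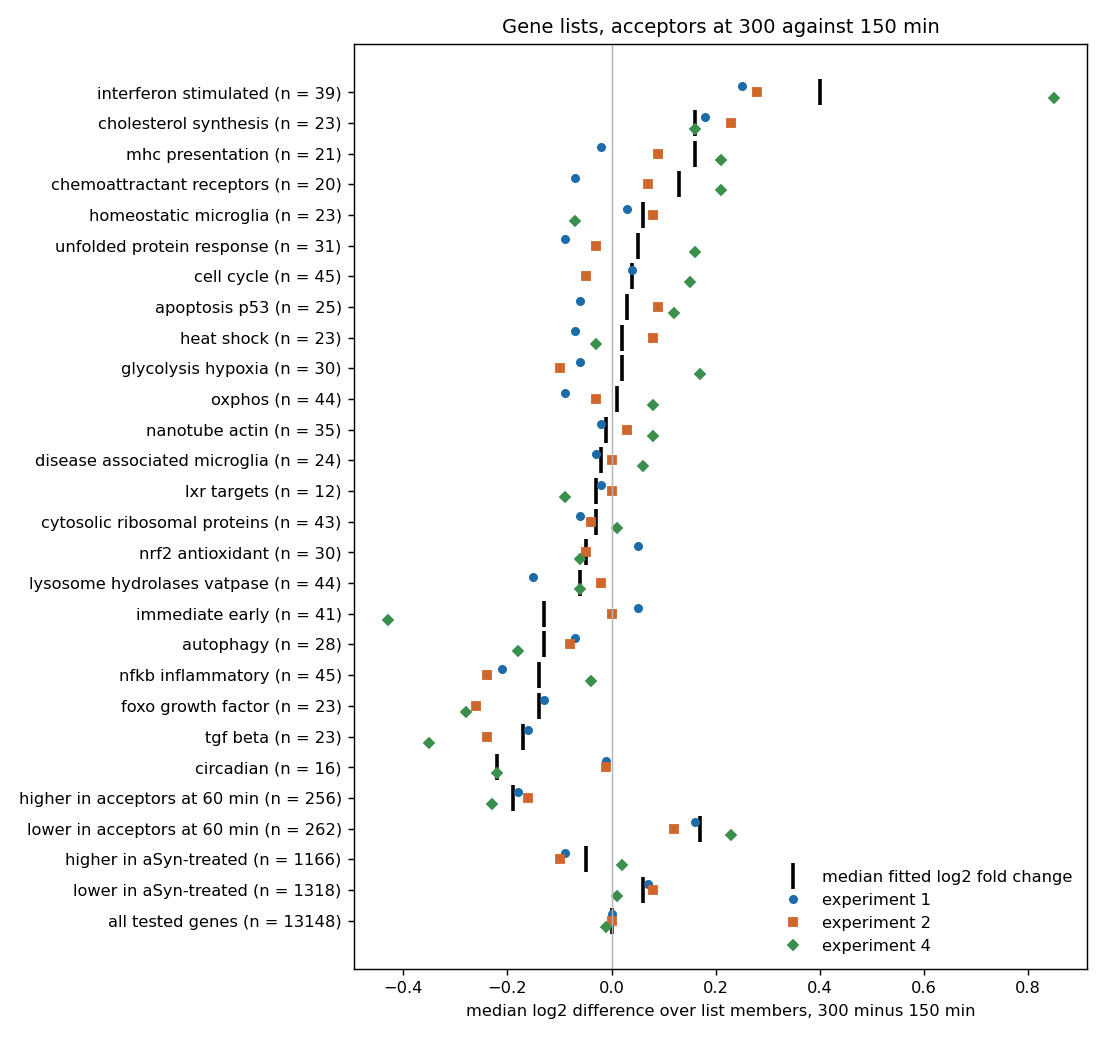
Median log2 difference between 300 and 150 min of each gene list other than cell type markers, with 1 point per experiment and a black bar for the median fitted log2 fold change (n, tested members). Interferon-stimulated genes had the highest median of the lists plotted, 0.40, and experiment 4 the highest value of its 3 pairs.

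The same interval in the donors of these co-cultures gave 2 calls of 13148 genes (0.0152%), both lower at 300 min. They were Adgre5, described above, and Zyx, the focal adhesion protein zyxin. Zyx stood at 169, 129, 104 and 79.2 CPM at 150 min and at 60.8, 53, 68 and 51.6 CPM at 300 min in donors of experiments 1 to 4 (log2 fold change -1.01, edgeR adjusted p of 2.75e-05). In acceptors Zyx stood at 82.6, 73.4 and 51.4 CPM at 150 min and at 70.2, 60.1 and 70.5 CPM at 300 min (log2 fold change 0.00). The difference between the changes was 1.01 with a 95% interval from 0.61 to 1.42, and it missed the threshold over all genes (edgeR adjusted p of 0.118).

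No gene passed the test of the difference between acceptors and donors (0 of 13148 in edgeR, with 272 genes or 2.07% at an unadjusted p under 0.05). Next to Zyx, the smallest p-values belonged to Stk10 (0.76, 95% interval from 0.34 to 1.19), the prostacyclin receptor Ptgir (2.59, from 1.11 to 4.07) and the near-identical alpha-globin genes Hba-a1 and Hba-a2 (-4.75 and -5.20), which mark red blood cells. The globin counts lay almost wholly in experiment 4, at 18.2 and 16.3 CPM in its acceptors at 150 min. Srgap2 was at 0.43 in donors (edgeR adjusted p of 0.432), and its difference between acceptors and donors was 0.42 with a 95% interval from 0.01 to 0.83 (edgeR adjusted p of 1). In donors the genes higher at 60 min in acceptors had a median of -0.15 and those lower at 60 min a median of 0.13 over the same interval. The medians of the difference between acceptors and donors were -0.05 and 0.03. Interferon-stimulated genes had a median of 0.13 in donors and of 0.25 for the difference.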

How the data were processed

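Values were raw counts of reads for 16632 gene symbols in 54 libraries, as deposited by the authors, per the file headers. The submitters' processing notes name STAR, Partek, DESeq2 and mm10, with no role or order. The counting program and its use of strand are not given in the sources used here. Groups and experiments came from sample titles. Same-numbered untreated libraries were summed and the unpaired acceptor library of experiment 3 at 150 min was left out, giving 51 units in the fit.

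Genes were tested with edgeR 4.0.16 in R 4.3.3 (TMM scaling, quasi-likelihood F test, Benjamini-Hochberg adjustment at 0.05, genes kept by filterByExpr at a minimum count of 10). All groups entered the fit with the experiment as a block, because the comparison is defined as paired by replicate number. Same-numbered libraries at 150 and 300 min deviated together from their group means across genes (r of 0.32, 0.63 and 0.67, against -0.57 to 0.09 for different numbers). CPM values of single genes use TMM-scaled library sizes, and log2 differences within experiments use a prior count of 2. Summed cell type markers use library totals without TMM scaling. Standard errors come from the fold change and its F statistic, and 95% intervals use 34 residual degrees of freedom. Counts of 3 correspond to between 0.21 and 0.32 CPM in these libraries. The labels name no molecular identifiers, and such floors cover counting error only. The scripts were tested on simulated data.

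Named genes were those called and moving the same way in all 3 pairs at a mean of at least 1 CPM, filled by smallest p to 12 in each direction. Up to 4 members of each list by p, a preset set of early-response, inflammatory and interferon genes, and 5 genes of the acceptor and donor difference were added. Where a gene is named beyond these (Ifi44, and Gvin1 and Ifit3b as copies) it was chosen after its values were seen, as were the 8 genes plotted over time. A gene that the rule named as higher and 1 interferon-stimulated gene are not reported here. The comparison, lists and rule were chosen with earlier results of these data known. Alternatives were DESeq2 1.42.0, other scaling, no filter, other sets of libraries, no block and leaving out experiments. Nothing in the labels says that experiments were separate animals or whether untreated cells were sorted, so p-values measure the spread between these libraries. In bulk RNA, fewer cells of a type and less RNA per cell cannot be told apart.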

Additional observations from a re-analysis of the deposited data

Results flagged for a closer look

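For the 8 genes plotted over time, each group of at least 4 libraries was searched for a library far from the others (the gap to the nearest library divided by the group's range). This gave 8 such libraries in 72 combinations of gene and group, where chance alone flags about 5%. Srgap2 stood apart in experiment 2 in acceptors at 15 min (80.4 CPM, next 58) and at 60 min (69.6 CPM, next 55). Adgre5 was high in acceptors of experiment 3 at 60 min (8.63 CPM, next 5). Ifit3 was high in untreated cells of experiment 2 (2490 CPM, next 332) and in donors of experiment 2 at 150 min (464 CPM, next 304). Donors of experiment 4 were low for Cxcr4 at 15 min (128 CPM, next 216) and 30 min (121 CPM, next 196). Slc7a7 was low in donors of experiment 1 at 30 min (17.6 CPM, next 22.2). None of these values lies in the 6 libraries compared, whose groups of 3 are too small for this search.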

How the results depend on the processing

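Pairing by experiment changed the counts of calls. Without the replicate block the common biological coefficient of variation was 38.1%, against 21.1% with it. The calls without the block were 0 between 300 and 150 min (202 genes at an unadjusted p under 0.05, Srgap2 at 0.84) and 0 in donors. Against untreated cells, the share of genes called without the block was 0% at 300 min, 0.0608% at 150 min, 0.0913% at 60 min and 2.37% for aSyn-treated cells. The 9 and 3 genes then called higher and lower at 60 min had medians between 150 and 300 min of -0.37 and 0.05. In the fit of the 6 libraries alone, 55 genes and 14 list members were called, against 1 and 0.

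Leaving out 1 experiment gave 0 calls between 300 and 150 min whichever was left out, with Srgap2 between 0.82 and 0.92. Over the same fits, the share of genes called against untreated cells ranged from 1.04% (without experiment 1) to 1.83% (without experiment 3) at 150 min, from 0.0843% (without experiment 4) to 0.376% (without experiment 2) at 300 min and from 0.863% (without experiment 3) to 2.78% (without experiment 4) at 60 min. It ranged from 10.5% (without experiment 3) to 15.4% (without experiment 1) for aSyn-treated cells and, between the times in donors, from 0% (without experiment 1) to 0.0383% (without experiment 4). Rebuilt without 1 experiment, the 60 min lists had medians from -0.27 to -0.18 (higher) and from 0.19 to 0.25 (lower), and the aSyn lists from -0.12 to 0.01 (higher, above 0 without experiment 2) and from 0.06 to 0.13 (lower). The cause of these shifts was not tested, although fewer libraries were fitted each time.

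With experiments left out, the values of experiment 3, of the comparisons with untreated or aSyn-treated cells and of the rebuilt lists were added after the data were seen. Among single genes, 12 of those named were called in the fit of the 6 libraries alone and in no other fit. No result with a call changed its direction under any alternative run. Genes of a few CPM, such as Gpc6, Fam161a and Usp6nl, rest on few reads.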

Other observations

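The 55 genes called in the fit of the 6 libraries alone held further genes outside the pathway lists, named here after their values were seen and not called in the fit over all groups. Higher at 300 min were Slfn5 (log2 fold change 0.74), the nuclear body protein genes Sp100 (0.76) and Sp110 (0.72) and the interferon-inducible GTPase gene Irgm2 (0.66). Ifi211 (0.65), Mndal (0.74) and Znfx1 (0.49) were higher too. Also higher were the transcription factor gene Pou2f2 (0.67) and Pik3cd (0.57), the delta catalytic subunit of phosphoinositide 3-kinase. Lower at 300 min were the transcription factor gene Cebpb (-0.74), the Notch ligand gene Jag1 (-0.84), the sheddase gene Adam9 (-0.84), the phagosomal GTPase gene Rab20 (-0.88), the lysosomal beta-mannosidase gene Manba (-1.32), the phosphodiesterase gene Pde4b (-0.70) and the metallothionein gene Mt2 (-0.80). Of these, Cebpb, Pde4b and Mt2 belong to the genes higher at 60 min and Slfn5 to those lower at 60 min. A further called gene, the chemokine gene Ccl12 (0.90), belongs to the NF-kB and inflammatory list.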
